A study of Mus musculus with 21 samples.

Results

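Adipogenic fibro-adipogenic progenitors (FAPs) were described in tibialis anterior muscle before and after injury. They were taken as every cell that carried the name FAPs (Adipogenic) after integration of the libraries with Harmony. The rule found 3360 cells among 87822 in all 21 mice, or 3.83% of the cells and 27.7% of the 12150 FAPs. The other FAPs were 6580 pro-remodeling and 2210 stem cells. By number of cells the adipogenic FAPs ranked 9 of the 23 Harmony types. A mouse gave between 11 (1 dpi mouse B) and 752 (5 dpi mouse B) of them, with a median of 88.

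FAPs are mesenchymal cells of the space between myofibers. They deposit extracellular matrix and release signals to muscle stem cells during repair, and in muscle that regenerates poorly they can turn into fibroblasts or fat cells. The adipogenic name marks the FAPs thought most able to take the fat cell route, the pro-remodeling name those with a matrix programme, and the stem name the less committed cells.

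The mice were female C57Bl/6J of 20 months. Injured mice received notexin, a snake venom phospholipase that destroys myofibers, in both tibialis anterior muscles. Time is given in days post-injury (dpi). Uninjured, 1 dpi and 3.5 dpi groups held 4 mice each, and those of 2, 5 and 7 dpi 3 each, and 1 mouse made 1 library of dissociated whole muscle on the 10x Chromium platform. Each mouse was collected once, so that time points are different animals.

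The libraries held 974 to 10556 cells, with 5602464 to 70730171 unique molecular identifiers (UMIs, each standing for 1 captured transcript) after removal of ambient RNA. The share of reads that fell in cells was 44.2% to 56.3% in uninjured libraries and 47.7% to 94.8% after injury. Immune cells made up 2.71% ± 0.692 (SD, n = 4) of uninjured cells and 73.4% ± 4.28 (n = 4) at 3.5 dpi. Only 1 barcode occurred in more than 1 library among the adipogenic FAPs. All 3360 cells were called singlets, which is no further check, since the study had removed putative doublets from each library beforehand. Values of single genes, among them the markers Pdgfra, Apod and Mme, were not analysed here, so the name was compared with the names from the other integration methods instead.

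The name depended on the method after injury. In uninjured muscle BBKNN gave the adipogenic name to 95.2%, 97.4%, 98.6% and 100% of the Harmony adipogenic FAPs of the 4 mice. At 3.5 dpi the values were 15.2%, 7.69%, 12.5% and 5.06%, far below every uninjured mouse. At 7 dpi they were 33.9%, 46.6% and 44.3%, between those groups. At 1 dpi (25%, 63.6%, 10.4% and 20.4%), 2 dpi (34.8%, 21.8% and 83.3%) and 5 dpi (15.9%, 13.8% and 29.8%) the mice spread widely, and all lay below the uninjured range.

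BBKNN moved these cells within the FAPs. It gave the name pro-remodeling to 88.6% of the adipogenic FAPs of 3.5 dpi (304 of 343 cells), 83.5% of those of 5 dpi and 59.3% of those of 7 dpi, against 1.03% in uninjured muscle. Over all time points 98.3% of the cells stayed in the broad FAP class. Counting any FAP name in place of the adipogenic name took away the change (adjusted p = 0.975 over all 21 mice, permutation test).

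Scanorama differed at other times. It kept the adipogenic name for 96.8%, 94.2%, 94.6% and 85.7% of the cells of the uninjured mice, and for 90.9% to 94.5% at 7 dpi. At 1 dpi it kept the name for 15%, 54.5%, 13.5% and 11.1%. There it called 76.9% of the cells tenocytes (213 of 277), the fibroblasts of tendon, and at 2 dpi 42.6%. The change over the 6 time points passed the test for BBKNN (-87.7 percentage points at 3.5 dpi, adjusted p = 0.0001) and for Scanorama (-69.3 points at 1 dpi, adjusted p = 8e-05), by the permutation test of the F statistic with Benjamini-Hochberg adjustment, so that 100% of the 2 methods tested were called.

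**Figure D1:**
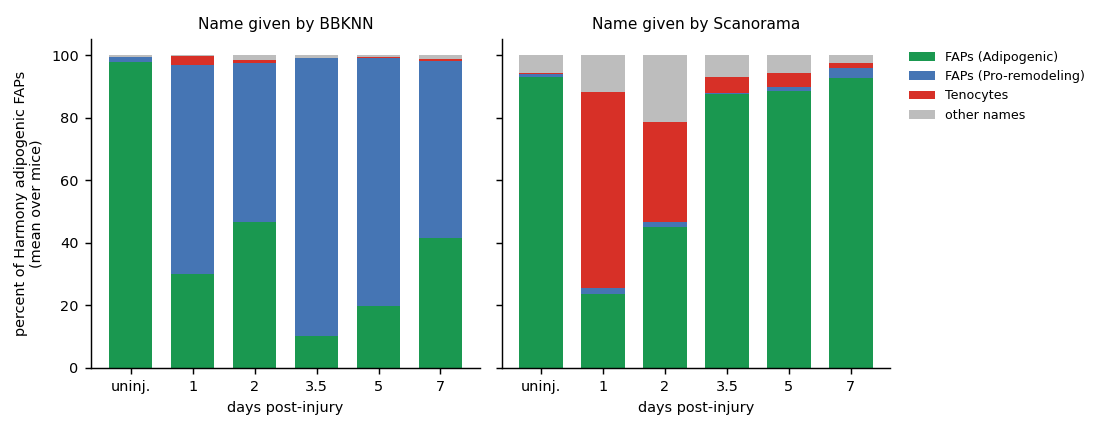
Names that BBKNN (left) and Scanorama (right) gave to Harmony adipogenic FAPs, as the mean percent over the mice of each time point (x axis, days post-injury). BBKNN gave the pro-remodeling name to 89.1% of them at 3.5 dpi, and Scanorama the tenocyte name to 62.9% at 1 dpi, as means over mice.

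By the deposited cluster numbers a small part of the adipogenic FAPs lay with tenocytes, mainly in 1 library. Of the adipogenic FAPs, 3192 (95%) lay in 1 cluster shared with the other FAPs. Another cluster, 91.5% of whose 992 cells were Harmony tenocytes, held 63, and 51 of these came from 1 dpi mouse C, where they were 26.6% of the adipogenic FAPs. None of the adipogenic FAPs of the other 3 mice of 1 dpi lay in it. Of the 365 adipogenic FAPs that Scanorama called tenocytes, 294 lay in the shared FAP cluster and 60 in the tenocyte cluster. BBKNN called 292 of the 365 pro-remodeling FAPs. A cluster of mostly muscle stem cells held 28, and a cluster of mostly neural cells 49. In 3.5 dpi mouse B 21.5% of the adipogenic FAPs lay in the muscle stem cell cluster. A label set deposited under the heading prefilter used 21 names, none of them adipogenic, and called 3275 of the 3360 cells (97.5%) pro-remodeling FAPs.

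Adipogenic FAPs took a changing share of all cells. They made up 2.78%, 10.0%, 2.94% and 2.87% of the cells of uninjured mice A to D. At 1 dpi the shares were 0.687%, 0.919%, 4.24% and 1.41%. Mouse B stood high among the uninjured mice, with 40.4% FAPs of all kinds, and mouse C stood high at 1 dpi.

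The lowest shares were at 2 dpi, with 1.06%, 1.2% and 0.942%, all below every uninjured mouse. At 3.5 dpi they were 2.52%, 2.47%, 1.78% and 2.03%, also all below. At 5 dpi they were 2.84%, 8.88% and 3.54%, and at 7 dpi 9.99%, 6.63% and 3.89%, and both groups overlapped the uninjured mice. Mouse B of 5 dpi, with 29.2% FAPs of all kinds, stood high in its group. Counting error was small beside the spread between mice: the exact Clopper-Pearson 95% interval was 9.03% to 11.1% in uninjured mouse B and 0.637% to 1.34% in 2 dpi mouse C, and such intervals cover counting error only.

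Over the 6 time points the share changed, with the largest difference from uninjured, -3.59 percentage points, at 2 dpi (adjusted p = 0.0273 over the 23 types, permutation test on the F statistic, Benjamini-Hochberg adjustment). Of all types 78.3% passed this test. The call was lost without 7 dpi mouse A (adjusted p = 0.0590) or mouse B (0.0536), and on untransformed shares (0.0683). By the BBKNN name the difference at 2 dpi was -13.1 points (adjusted p = 6.75e-05) and by the Scanorama name -16.4 points (0.00151), in the same permutation test.

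No single time point passed against uninjured in the exact permutation test adjusted over all types and time points. The smallest exact p that 4 mice against 4 or 3 can give, 0.0286, had an adjusted p of 0.0522 here. No type passed at any time point, so this outcome does not set adipogenic FAPs apart. At 3.5 dpi the difference was -2.45 points (exact p = 0.0286, adjusted p = 0.0522), and at 1 and 2 dpi it was -2.84 and -3.59 points (exact p = 0.114 for both). At 5 and 7 dpi it was 0.431 and 2.18 points (exact p = 0.8 and 0.4), and without 5 dpi mouse B the former was -1.47 points. The groups did not overlap at 2 and 3.5 dpi, as for 65.2% and 82.6% of the 23 types, while at 1, 5 and 7 dpi 43.5%, 60.9% and 52.2% of the types did not overlap. An edgeR quasi-likelihood test on the numbers of cells called 2 dpi (adjusted p = 0.00319). It also called 1 dpi (0.0323), but not with TMM scaling (0.0637) or with the mouse letter as a block (0.0731).

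Neighbouring time points differed beyond their spread, before adjustment, from 2 to 3.5 dpi (1.13 points) and from 3.5 to 5 dpi (2.88 points; exact permutation p = 0.0286 and adjusted p = 0.0952 for both). From 1 to 2 dpi (-0.746 points, exact p = 0.8) and from 5 to 7 dpi (1.75 points, exact p = 0.5) they did not.

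Where the share of all cells was low, at 1, 2 and 3.5 dpi, immune cells were many. They averaged 62.3%, 68.7% and 73.4% there, against 2.71% in uninjured muscle. Without them, adipogenic FAPs were 2.85%, 10.4%, 3.01% and 2.95% of the cells of uninjured mice and 9.48%, 8.99%, 10.1% and 9.86% at 3.5 dpi, so that 3 of the 4 uninjured mice lay below the injured ones. At 2 dpi they were 6.75%, 6.63% and 2.57%. The difference at 2 dpi was then 0.506 points, the sign was turned, and the time course did not pass (adjusted p = 0.494, permutation test over 21 mice). A share of all cells therefore says nothing of how many adipogenic FAPs a muscle held.

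**Figure D2:**
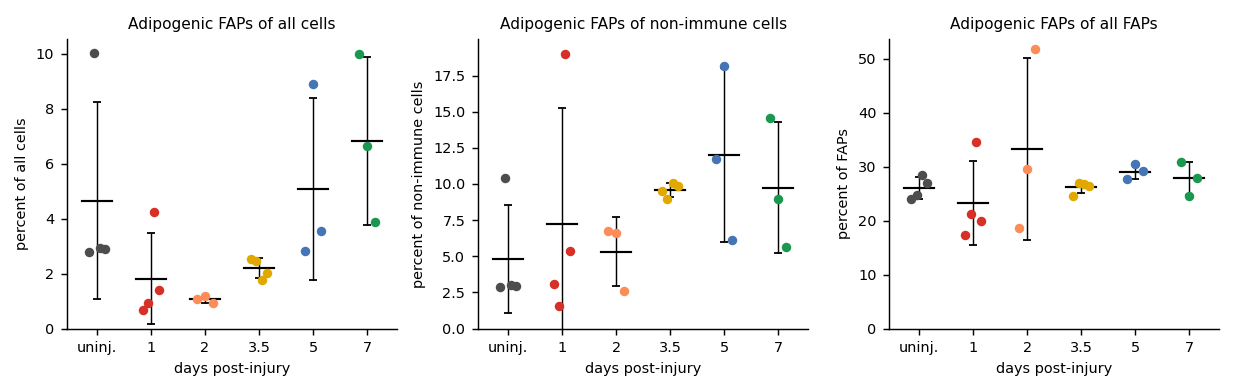
Adipogenic FAPs as percent of all cells, of non-immune cells and of FAPs (y axes) by days post-injury (x axes); points are mice, lines and bars the mean ± SD, cropped at 0. At 2 and 3.5 dpi every mouse lies below the uninjured mice in the left panel, while the share of FAPs overlaps the uninjured mice at all 5 later time points.

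Among FAPs the adipogenic share ran from 17.2% to 51.7% over the 21 mice. It was 24.0%, 24.8%, 28.4% and 26.9% in uninjured mice and 24.6%, 26.9%, 26.7% and 26.3% at 3.5 dpi. At 5 dpi it was 27.7%, 30.4% and 29.1%, and at 7 dpi 30.9%, 24.6% and 27.9%. The groups of 1 dpi (17.2%, 21.2%, 34.6% and 20.0%) and 2 dpi (18.5%, 29.6% and 51.7%) spread more widely.

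The highest value was that of 2 dpi mouse C, from 58 FAPs (exact Clopper-Pearson 95% interval 38.2% to 65.0%). The share of FAPs did not pass the test over time (7.26 points at 2 dpi, adjusted p = 0.656 over the 3 FAP types, permutation test). Without 2 dpi mouse C the difference was -1.96 points (adjusted p = 0.548), and without 2 dpi mouse A it was 14.6 points and was called (adjusted p = 0.0382).

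Of the other FAP types, stem FAPs fell as a share of FAPs from 25.4% in uninjured muscle to 13.5% at 3.5 dpi (adjusted p = 0.0233, permutation test), the only one of the 3 FAP types to pass (33.3%). Pro-remodeling FAPs did not pass (11.8 points at 3.5 dpi, adjusted p = 0.0788 by permutation). In single time points none of the 5 tests of the adipogenic share passed (exact permutation test, smallest exact p = 0.114, at 5 dpi, adjusted p = 0.190), and none had an exact p under the threshold before adjustment.

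The outcome depended on the method that gave the name. By the BBKNN name the adipogenic share of FAPs at 2 dpi differed from uninjured muscle by -44.2 points (adjusted p = 0.00033, permutation test). By the Scanorama name the difference was -6.45 points (adjusted p = 0.123). In total BBKNN named 3121 cells adipogenic, of which 40.1% were Harmony adipogenic and 53.3% Harmony pro-remodeling FAPs. Scanorama named 10577, of which 26.5% were Harmony adipogenic FAPs.

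Cells that all 3 methods named adipogenic numbered 1112. They were 23.7% ± 1.86 (SD, n = 4) of FAPs in uninjured muscle, at 3.5 dpi 2.01% ± 1.27 with 4 mice, and by 7 dpi 10.5% ± 0.791 with 3. At 1 dpi 15 such cells were left in all 4 mice. In this set, chosen after the data were seen, the share of FAPs changed over time (-11.7 points at 2 dpi, adjusted p = 0.00327, permutation test). The set leaves out every cell that lost the name in BBKNN or Scanorama. Its change therefore contains the disagreement of the methods and cannot be read as a change in the cells.

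More UMIs were counted per adipogenic FAP at 1 and 3.5 dpi than in uninjured muscle. The median number of UMIs per cell was 6864, 3943, 5244 and 6948 in uninjured mice A to D and 22750, 22522, 16092 and 17305 at 3.5 dpi. Every mouse of 3.5 dpi lay above every uninjured one. At 1 dpi the medians were 10287, 10474, 13420 and 19242, also all above. The share of reads that fell in cells averaged 48.6% in uninjured libraries and 94.55% at 3.5 dpi. Reads per cell averaged 47925 and 46874 in the same groups, but the uninjured mean rested on mouse D with 117596. The medians were 29134 in uninjured libraries (lowest 15835) and 44939 at 3.5 dpi (30251 to 67365). Whether the UMIs followed the RNA content of the cells or the depth of the libraries was not tested.

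At 2 dpi they were 7863, 6094 and 5279, within or just above the uninjured range. At 5 dpi they were 13392, 8848 and 10266, all above, and at 7 dpi 6392, 9013 and 10103, partly within. The change over time passed the test, with 1.79 on the log2 scale (3.47-fold) at 3.5 dpi (adjusted p = 0.000567, permutation test with Benjamini-Hochberg adjustment over all types and measures).

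Genes detected per cell moved alike, from 2035 ± 479 (SD, n = 4) in uninjured muscle to 4467 ± 293 (n = 4) at 3.5 dpi (1.16 on the log2 scale or 2.24-fold, adjusted p = 0.00239, permutation test). Over all types, 7 of 23 passed for UMIs and 6 of 23 for genes. Relative to the median of the other cells of the same mouse, a scale added after seeing the data, adipogenic FAPs held 1.46 times their UMIs in uninjured muscle and 1.66 times at 3.5 dpi, and this ratio did not pass the test over time (adjusted p = 0.348, permutation test over 21 mice).

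Among cells with 4000 to 8000 UMIs, the genes per adipogenic FAP were fewest in uninjured muscle (2051 ± 260, SD, n = 4). They were most at 1 dpi (2283 ± 31.5, n = 2). The change did not pass (0.16 on the log2 scale, p = 0.594, permutation test over 17 mice), with 2 mice each at 1 and 3.5 dpi. Among cells with 8000 to 16000 UMIs, the difference at 1 dpi was 0.26 and passed (p = 0.00412, permutation test).

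Ribosomal protein genes, which code for the protein part of the ribosome, took a larger part of the UMIs early after injury. Their median share was 10.3%, 12.5%, 11.7% and 12.6% in uninjured mice and 20.9%, 18%, 15.2% and 18.4% at 1 dpi. All mice of 1 dpi lay above all uninjured ones. At 3.5 dpi the shares were 15%, 15.5%, 15.2% and 16.7%, again all above, and at 7 dpi 9.83%, 11.5% and 11.6%.

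The change passed the test (6.35 percentage points at 1 dpi, adjusted p = 0.0017, permutation test), as it did in 12 of 23 types. The share differed between cells that Scanorama named differently, in the 6 mice with at least 10 cells of each name. In 1 dpi mouse C, the only one of its time point, the 155 cells that Scanorama called tenocytes had a median of 15.5% and the 26 it called adipogenic FAPs 12.1%. At 2 dpi the tenocyte-named cells had 15.8% in mouse A and 16.1% in mouse B, against 12.3% and 13.7% in the adipogenic-named cells. The values lay closer in 5 dpi mice A (13.5% against 12.2%) and B (13.0% against 12.3%), and in 7 dpi mouse B the order was turned (11% against 11.5%). With only the cells that both Harmony and Scanorama named adipogenic, the difference at 1 dpi was 0.228 points, from the 1 mouse with at least 10 such cells.

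Heat shock genes, whose products help proteins fold and which also respond to tissue dissociation, had medians of 0.513%, 0.594%, 0.517% and 0.617% of UMIs in uninjured mice. At 1 dpi they had 1.01%, 0.702%, 0.927% and 1.2%, with no overlap. By 5 dpi the values were 0.641%, 0.621% and 0.562%. The share changed over time (0.399 points at 1 dpi, adjusted p = 0.0177, permutation test), as in 9 of 23 types, and the mean over cells in place of the median lost the call (adjusted p = 0.0824).

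Mitochondrial transcripts, which code for parts of the respiratory chain, were most abundant in uninjured muscle, with 10.8%, 17.6%, 13.9% and 6.07%. At 5 dpi the medians were 5.34%, 4.38% and 5.53%, all below. The share passed the test over time (-7.03 points at 5 dpi, adjusted p = 0.0451, permutation test), as in 13 of 23 types, but the call held in only 3 of the 21 fits without 1 mouse (adjusted p from 0.0152 to 0.116). Relative to the other cells of the same mouse the sign at 5 dpi turned, to 2.44 points (adjusted p = 0.0146, permutation test).

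Genes for transcription factors, the proteins that bind DNA to set which genes are read, stood highest at 7 dpi, with 5.29%, 4.96% and 4.52% of UMIs. Uninjured mice had 3.67%, 4.19%, 3.45% and 4.64%, so that the groups overlapped. The lowest median was 2.37%, in 1 dpi mouse A. The share changed over time (0.934 points at 7 dpi, adjusted p = 0.0246 by permutation), as in 12 of 23 types. The call was lost without 7 dpi mouse A (adjusted p = 0.0891) or mouse B (0.0663).

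Long intergenic noncoding RNAs (lincRNAs), transcripts that lie between protein-coding genes and code for no protein, had 2.23%, 2.14%, 2.67% and 3.83% in uninjured mice. At 3.5 dpi they had 1.42%, 0.883%, 1.2% and 1.35%, all below. At 2 dpi mouse C had 3.16%, while mice A and B had 1.03% and 0.794%. The change did not pass (-1.50 points at 3.5 dpi, adjusted p = 0.102 by permutation). Without 2 dpi mouse C it did (adjusted p = 0.00612).

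Protein-coding genes together made up 89.1% ± 0.659 (SD, n = 4) of UMIs in uninjured muscle and 93.8% ± 0.375 (n = 4) at 3.5 dpi (4.77 points, adjusted p = 0.0135, permutation test), as in 17 of 23 types. Antisense transcripts, read from the strand opposite to a gene, had 0.0846% ± 0.0124 (n = 4) and were at 0.0579% ± 0.00508 (n = 4) at 1 dpi (-0.0267 points, adjusted p = 0.0349, permutation test). The latter call held in 15 of the 21 fits without 1 mouse and was lost with a minimum of 20 cells (adjusted p = 0.112), a stricter filter on cells (0.126) or the mean over cells (0.122), and 4 of 23 types passed. Relative to the other cells of the mouse both signs turned, to -1.93 points for protein-coding genes and 0.00396 points for antisense transcripts. Other measures kept their sign on this scale. Ribosomal protein went from 3.37 to 9.36 points at 1 dpi (adjusted p = 0.000935) and heat shock from -0.0656 to 0.212 (0.0204). Transcription factors went from -0.144 to 0.580 points at 7 dpi (0.0149). These 3 p-values are from the permutation test, adjusted over the measures on this scale alone.

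The deposited bplncRNA class did not pass (adjusted p = 0.667, permutation test), and neither did snoRNAs (adjusted p = 1), small RNAs that guide the modification of other RNAs. The medians of miRNAs and snRNAs were 0 in all 21 mice and were not tested. In all, 8 measures of adipogenic FAPs passed, beside 35.7% of the 255 tests over all types and measures. Among cells with 4000 to 8000 UMIs none of them passed in the permutation test over the 17 mice with at least 5 such cells. The window itself holds UMIs alike, and only 2 mice each were left at 1 and 3.5 dpi. A lost call there cannot be told from the loss of mice. There the ribosomal protein difference at 1 dpi was 3.16 points (adjusted p = 0.435), the mitochondrial one at 5 dpi -3.04 points (0.518) and the heat shock one at 1 dpi 0.535 points (0.0929).

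**Figure D3:**
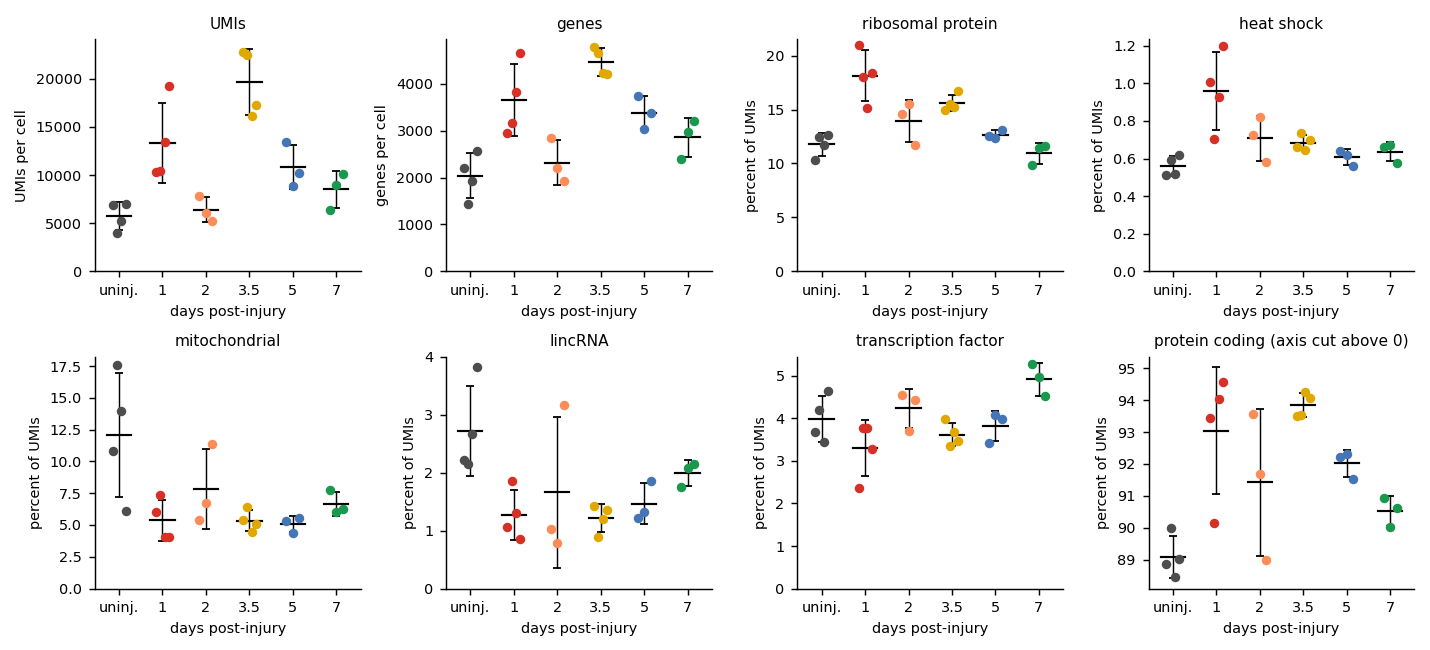
Medians over adipogenic FAPs of 8 per-cell measures (y axes: number per cell, or percent of UMIs) by days post-injury (x axes); points are mice, lines and bars the mean ± SD, and the axis of protein-coding genes does not start at 0. UMIs and genes are highest at 3.5 dpi, ribosomal protein and heat shock shares at 1 dpi, and 2 dpi mouse C lies near the uninjured mice in most panels.

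The time points against uninjured muscle showed when these measures differed. At 1 dpi 7 of 11 measures of adipogenic FAPs did not overlap with uninjured mice, beside 44.4% of all types and measures. At 3.5 dpi it was 6 of 10, beside 46.4%, and at 5 dpi 5 of 10, beside 25.6%. At 7 dpi 1 of 10 did not overlap (19.5% of all), namely protein-coding genes.

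At 2 dpi no measure of adipogenic FAPs was without overlap (22.7% of all), and none had an exact p under the threshold. None of the 837 tests of this table passed after adjustment (exact permutation test with Benjamini-Hochberg adjustment, smallest adjusted p = 0.199). That value belonged to an exact p of 0.0286, the smallest that 4 mice against 4 or 3 can give. The adjusted test could therefore not show whether a single measure differed. Before adjustment 7 measures of adipogenic FAPs were under the threshold at 1 dpi, 6 at 3.5 dpi and 2 at 5 dpi. These were all among the measures without overlap above and add nothing to that count. The share of all types and measures under the threshold was not counted.

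Within a mouse, adipogenic FAPs were compared with the other FAPs, as a description, since the names came from clustering the same expression. They held fewer UMIs than pro-remodeling FAPs in 18 of 21 mice and fewer genes in 20 of 21, with a median ratio of 0.833 for UMIs and 0.886 for genes. Their heat shock share was lower in 21 of 21 mice. Their mitochondrial and ribosomal protein shares were each higher in 19 of 21.

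Against stem FAPs, with 19 mice that had at least 10 cells of both, adipogenic FAPs had a higher antisense share in 19 of 19 mice and a higher lincRNA share in 17. UMIs were lower in 13 of 19.

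Whether such a gap changed over time could be tested, and 2 of 23 gaps passed (8.7%). The heat shock gap to pro-remodeling FAPs was -0.248 ± 0.0267 percentage points (SD, n = 4) in uninjured muscle and -0.361 ± 0.159 (n = 4) at 1 dpi. At 3.5 dpi it was -0.0607 ± 0.0201 (n = 4). At 5 dpi it was -0.0711 ± 0.0511 and at 7 dpi -0.0889 ± 0.0413 (n = 3 for both). In the heat shock share both types thus lay closer together from 3.5 dpi on. The test was of any change over the time points (adjusted p = 0.00897, permutation test). Pro-remodeling FAPs had 0.808% ± 0.0576 (n = 4) in uninjured muscle and 0.746% ± 0.0431 (n = 4) at 3.5 dpi, and adipogenic FAPs 0.560% ± 0.0530 and 0.685% ± 0.0396. The call held in all 21 fits without 1 mouse. The gap in UMIs to pro-remodeling FAPs did not narrow. On the log2 scale it was -0.0431 ± 0.120 in uninjured muscle and -0.611 ± 0.0395 at 7 dpi (adjusted p = 0.316, permutation test).

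The lincRNA gap to stem FAPs was 0.700 ± 0.434 points (SD, n = 4) in uninjured muscle, then -0.0477 ± 0.189 at 3.5 dpi (n = 4), and by 7 dpi 0.391 ± 0.0602 with 3 mice (adjusted p = 0.0178, permutation test over 19 mice). It was lost without 1 dpi mouse C (adjusted p = 0.0542), 3.5 dpi mouse B (0.0774), 7 dpi mouse A (0.0577) or 7 dpi mouse B (0.0562).

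**Figure D4:**
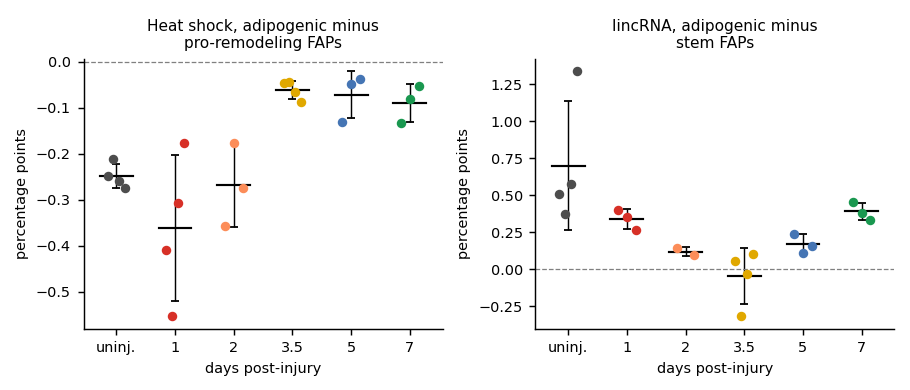
Difference between medians of adipogenic and pro-remodeling FAPs in the heat shock share (left) and between adipogenic and stem FAPs in the lincRNA share (right), in percentage points of UMIs (y axes) by days post-injury (x axes); points are mice, lines and bars the mean ± SD. The heat shock difference is below 0 in all 21 mice and nearest to 0 at 3.5 dpi.

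The cells on which Harmony and BBKNN differed could be set side by side within a mouse in 12 injured mice, again as a description. Harmony adipogenic FAPs that BBKNN also called adipogenic had fewer UMIs than those it called pro-remodeling in 12 of 12 mice, with a median ratio of 0.522. In 3.5 dpi mouse A the medians were 13408 and 23286 UMIs, and in 7 dpi mouse A 5465 and 7293. The cells that kept the name had a higher transcription factor share in 12 of 12 mice and a lower ribosomal protein share in 11. Their heat shock share was lower in 9 and their lincRNA share higher in 9. The part that the number of UMIs per cell had in the name was not tested.

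**Figure D5:**
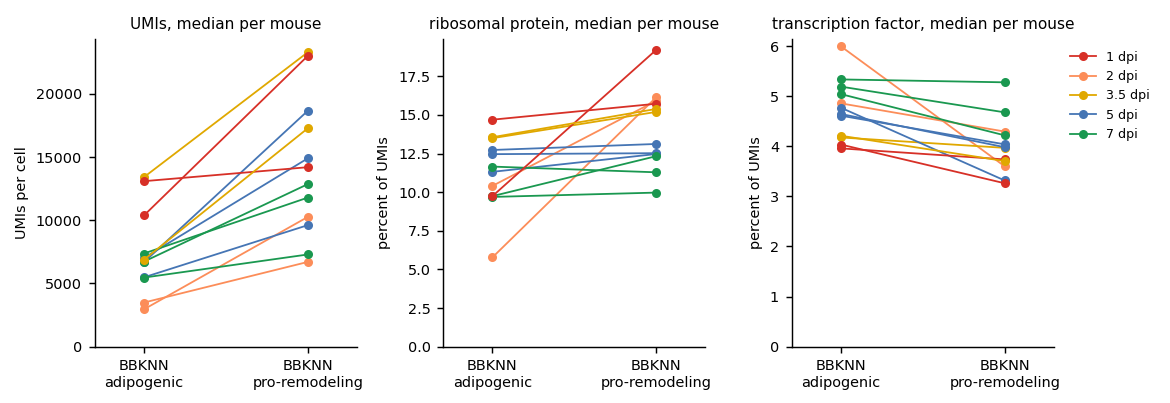
Medians of UMIs per cell, ribosomal protein share and transcription factor share (y axes) of Harmony adipogenic FAPs that BBKNN called adipogenic or pro-remodeling (x axes); each line is 1 of 12 mice, colored by time point. UMIs are lower in the cells that kept the adipogenic name in all 12 mice.

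In 2 dpi mouse C, singled out after its values were seen, the highest adipogenic share of FAPs went with measures near those of uninjured mice. BBKNN kept the name for 83.3% of its 30 adipogenic FAPs, against 34.8% and 21.8% in the other mice of 2 dpi. Their ribosomal protein share was 11.7%, against 14.6% and 15.5%, and their mitochondrial share 11.4%, against 5.35% and 6.73%. Of its cells 58.5% were immune, against 73.0% and 74.5%. With uninjured mouse B and this mouse both left out, a choice made after seeing the data, the share of all cells differed by -1.74 points at 2 dpi.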

How the data were processed

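Per the labels, dissociated cells of 21 muscle samples, 1 mouse each, were sequenced on the 10x Chromium platform. The submitters' processing notes name Cell Ranger 3.1.0, Seurat 3.1.5 and the mouse genome build mm10. In the study's methods, ambient RNA was removed with SoupX and doublets with DoubletFinder, libraries were integrated together with many others by Harmony, BBKNN and Scanorama, and clusters were named separately for each method from marker genes. The deposited tables hold 1 line per cell. The authors gave UMIs per cell in the form of expected counts, corrected for ambient RNA, numbers of genes and reads as counts, gene classes as percent of UMIs, and doublet and contamination scores as fractions. How genes were assigned to classes was not given in the sources used here.

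Members and tests were chosen with earlier results of these data known. No single gene was named, because the tables used here hold none. The unit was the mouse: its share of cells, or its median over at least 10 adipogenic FAPs. Time courses used a permutation test of the F statistic (100000 resamples, smallest possible p 1e-05) on arcsine square root shares, log2 UMIs and genes, and untransformed percents. Pairs of time points used the exact two-sided permutation test of the difference of means, which cannot go below p = 0.0286 with 4 mice against 4 or 3, nor below 0.1 with 3 against 3. The Benjamini-Hochberg adjustment ran over all types and measures of a table, with a threshold of 0.05. Numbers of cells were also fitted with edgeR 4.0.16 (R 4.3.3). Other steps used scipy 1.17.1, pandas 2.3.3 and numpy 2.4.6 in Python 3.11.15. Each test was checked on simulated data. Of the adipogenic FAPs 107 (3.18%) had under 750 genes and were kept, and the fewest genes were 503.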

Additional observations from a re-analysis of the deposited data

Results flagged for a closer look

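Of 46 groups of 4 mice examined, 5 held a mouse far from the other 3, and chance gives about 1 in 20 groups for normally distributed values. The groups share mice and overlap in what they measure, so the 5 are not independent. Uninjured mouse B had 10.0% adipogenic FAPs among all cells, against 2.78% to 2.94% in the others, and 10.4% among non-immune cells, against 2.85% to 3.01%. In 1 dpi mouse B the median snoRNA share of its 11 adipogenic FAPs was 0.00558% of UMIs, against 0 in the other mice. With the others at 0, any value above 0 would have been flagged. Scanorama kept the adipogenic name for 54.5% of the cells of 1 dpi mouse B, against 11.1% to 15%, and for 72.3% in 3.5 dpi mouse B, against 91.1% to 93.7%.

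Differences between FAP types that changed over time were those in heat shock share between adipogenic and pro-remodeling FAPs (adjusted p = 0.00897) and in lincRNA share between adipogenic and stem FAPs (adjusted p = 0.0178), by the permutation test with Benjamini-Hochberg adjustment.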

How the results depend on the processing

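Of 718 values under other settings, 627 kept direction and call, 53 were weaker, 7 stronger and 23 reversed, and 8 counts moved. Most of the 718 only left out 1 mouse, and a result not called counts as kept when still not called. Under the remaining settings 13 of 16 values were kept for the share of all cells over time. For the share of FAPs over time it was 5 of 9. The share of all cells at 2 dpi was 0.506 points among non-immune cells (adjusted p = 0.494) and 3.09 among FAPs and tenocytes (0.181), and untransformed it was -3.59 (0.0683). Without 1 mouse it ran from -4.21 to -1.80 points (adjusted p 0.00986 to 0.0590). By time point, leaving out 1 mouse gave -3.65 to -1.05 points at 1 dpi, -4.21 to -1.80 at 2 dpi, -3.08 to -0.665 at 3.5 dpi, -1.47 to 2.22 at 5 dpi and 0.602 to 3.97 at 7 dpi. Among non-immune cells the differences were 2.44, 0.506 and 4.79 points at 1, 2 and 3.5 dpi. Fitted with edgeR, the log2 fold was -1.34 at 1 dpi and -2.13 at 2 dpi, and with TMM -1.24 at 1 dpi (adjusted p = 0.0637), -2.06 at 2 dpi and -0.44 at 5 dpi. By the BBKNN name the difference was -13.1, -12.4 and -8.63 points at 2, 5 and 7 dpi, and by the Scanorama name -16.4 and -1.03 at 2 and 5 dpi.

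The share of FAPs at 2 dpi was -44.2 points by the BBKNN name, -6.45 by the Scanorama name, -11.7 for cells named alike by all 3 methods and -2.37 without uninjured mouse B and 2 dpi mouse C, the last pair chosen after seeing the data. Without 1 mouse it ran from -1.96 to 14.6. The number of measures called was 0 in cells of 4000 to 8000 UMIs, by the permutation test, and 5 to 9 without 1 mouse (5 without 7 dpi mouse B). In that window, which holds UMIs alike by construction, UMIs differed by -0.00569 on the log2 scale. Relative to the other cells of the mouse, chosen after seeing the data, the difference was 2.44 points for mitochondrial, 0.00642 for bplncRNA, 0.00396 for antisense and -1.93 for protein-coding transcripts. Genes at matched UMIs differed by 0.26 (log2) in cells of 8000 to 16000 UMIs and by 0.07 to 0.21 without 1 mouse. The 2000 to 4000 window gave no value at 1 dpi. The number of gaps called was 1 with at least 5 cells and 1 to 4 without 1 mouse (4 without 1 dpi mouse D, and 1 without 1 dpi mouse C, 3.5 dpi mouse B, 7 dpi mouse A or 7 dpi mouse B). Counting any FAP name, the BBKNN difference was -0.244 points. Leaving out 1 mouse, the name kept by BBKNN differed by -89.4 to -86.0 points and that kept by Scanorama by -79.6 to -65.1. Beyond what the settings construct, the cause was not tested.

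Mouse letters recur across time points. The 48 pairs with the same letter had a median correlation of -0.0228, from -0.798 to 0.732, and 20 were over 0.1. The median of 135 pairs with other letters was 0.0226. Whether a letter marks mice handled together cannot be told from these values. With the letter as a replicate block the share of all cells differed by -3.59 points (adjusted p = 0.0209) and the share of FAPs by 7.26 (0.628), the edgeR log2 fold was -2.09 at 2 dpi and -1.18 at 1 dpi (0.0731, no longer called), and 6 measures were called, without mitochondrial (0.0684) and transcription factor (0.0752) shares. Depth limits single mice: 11 adipogenic FAPs in 1 dpi mouse B and 20 in 1 dpi mouse A.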

Other observations

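Small RNA classes with a median of 0 were still seen in part of the adipogenic FAPs. Transcripts of the deposited miRNA class were above 0 in 17.6% ± 10.7 (SD, n = 4 mice) of these cells in uninjured muscle and in 30.2% ± 6.93 (n = 4) at 1 dpi, and snRNAs in 16.5% ± 10.8 and 29.9% ± 5.28. snoRNAs were above 0 in 20.2% ± 7.69 and 41.9% ± 10.7. The cells of 1 dpi also held more UMIs (13355 ± 4178, against 5750 ± 1437 in uninjured muscle), and the shares were not thinned to 1 depth or tested.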
